A study of Homo sapiens with 9 samples.

Results

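The kinesins described here are the 39 genes whose symbols begin with KIF and name a motor protein, without KIF1C, out of 37196 genes with a count in at least 1 library and 62709 listed in the count table. Symbols of pseudogenes (KIF19BP, KIF27P1, KIF27P2, KIF28P), antisense transcripts and the kinesin-binding proteins KIFAP3 and KIFBP were not members. KIF1C was left out by the rule, and 2 kinesins with other symbols, CENPE and STARD9, fell outside it. The rule went by symbol in the deposited TPM data, which list only genes with a count in at least 1 library, and otherwise used no measured level.

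The libraries came from hTERT-MSC (ATCC SCRC-4000), human mesenchymal stem cells of adipose origin that had been made immortal with telomerase. Per the labels' protocols, cells without serum settled for 2 h on uncoated inserts with 3 µm pores, and PDGF-BB at 50 ng/mL was then placed in the lower well for 1 h as a chemoattractant. Pseudopodia (protrusions that had passed the pores, 3 libraries) were scraped from the lower side, and cell body material (3 libraries) from the upper side afterwards; whole cell libraries (3) bear the same treatment label, and how they were collected is not described. All 9 libraries thus come from 1 line under 1 stimulus, with no group without PDGF-BB, and the labels do not say whether replicates were separate cultures. The p-values measure only how far these samples vary, which may be technical variation.

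Kinesins are microtubule motors that hydrolyse ATP through a conserved motor domain, and most walk towards the plus ends, which in a spreading or migrating cell largely point to the periphery. One set carries vesicles, mitochondria, endosomes and RNA granules along interphase microtubules, often through light chains and adaptor proteins. Another set builds the spindle and completes cytokinesis, and its genes are transcribed mainly in late cell cycle phases, often from promoters with a CCAAT box and a cell cycle genes homology region (CHR). Messenger RNAs can themselves be sorted into protrusions, and KIF1C is known to carry some of them.

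Promoters of members are shown first because most mitotic members were lower in pseudopodia than in whole cell, while most transport members were higher. Against cell body 1 of 12 tested mitotic members was lower, and the part of promoters in these differences was not tested. Promoters were taken from RefSeq (GRCh38.p14), and the 250 bases before each start were searched on both strands for the letters CCAAT and for the CHR letters, which are TTTGAA in one form and TTTAAA in the other. CCAAT lay in 11 of the 14 promoters of 13 mitotic members (78.6%), in 5 of 16 promoters of 11 transport members (31.2%), in 2 of 9 promoters of 7 other members (22.2%) and in 32.0% of all 35116 promoters. CHR letters in either form lay in 7 mitotic promoters (50.0%), 2 transport promoters (12.5%), 0 of the other members' promoters and 21.9% of all. Both kinds were held by 6 mitotic promoters (42.9%) and 1 transport promoter (6.25%), against 7.64% of all. A match is a description of the letters and not a bound site. The 150 bases before the start are given 5′ to 3′ for KIF11 (chr10:92592980-92593129, plus strand) and KIF14 (chr1:200620752-200620901, minus strand), the mitotic members with the lowest pseudopodia levels relative to whole cell, and for KIF3B (chr20:32277501-32277650, plus strand), the member with the highest pseudopodia level. Capitals mark the CCAAT match, which reads ATTGG where it lies on the other strand, and the CHR match, which in KIF11 reads TTCAAA because it lies on the other strand. The CHR match of KIF14 lies farther upstream than the stretch shown, and KIF3B has a CCAAT match and no CHR match.
KIF11: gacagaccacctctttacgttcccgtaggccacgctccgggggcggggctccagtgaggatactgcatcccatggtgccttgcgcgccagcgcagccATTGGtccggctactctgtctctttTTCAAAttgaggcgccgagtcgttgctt
KIF14: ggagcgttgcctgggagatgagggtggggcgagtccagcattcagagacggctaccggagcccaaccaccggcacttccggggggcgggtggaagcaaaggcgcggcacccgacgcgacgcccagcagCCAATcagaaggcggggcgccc
KIF3B: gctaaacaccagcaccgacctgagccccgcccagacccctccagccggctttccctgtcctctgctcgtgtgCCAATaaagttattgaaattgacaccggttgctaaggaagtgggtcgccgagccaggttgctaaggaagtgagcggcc

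Library totals were 55469030 to 83894938 counts. Replicates varied by a biological coefficient of variation over all genes of 32.0% (pseudopodia), 17.6% (cell body) and 5.08% (whole cell). The 8 mesenchymal stem cell markers were all tested, with summed levels of 8780 to 10300 TPM in pseudopodia, 16400 to 18700 in cell body and 17900 to 18400 in whole cell. Of them 7 were lower in pseudopodia than in cell body (87.5%, with 19.9% of all tested genes). PTPRC (blood cells), EPCAM (epithelium), KDR (endothelium) and DCX (neurons) had mean levels under 0.1 TPM in each group, while CD34, KRT18 and TEK did not (25.6 to 33.0, 86.7 to 194 and 32.7 to 59.7 TPM as group means). Over whole marker lists, the summed group means were 33.2 to 59.7 TPM for blood cells, 151 to 269 for epithelium, 43.4 to 74.7 for endothelium and 1.89 to 6.98 for neurons, and the part of other cell types in the results was not tested. Pseudopodia replicates differed along GC content: the departure of a library from the other pseudopodia libraries followed the members' GC content with Pearson r = -0.76 for replicate 2 and 0.70 for replicate 3 over 34 members (-0.59 and 0.60 over all genes), a description with no test. Since the 3 departures are not independent, these values do not show which library is the unusual one. Replicate 2 was the highest pseudopodia library for 18 of 34 tested members (32.0% of all tested genes) and replicate 3 for 14 (45.2% of all), and cell body replicate 2 was the highest of its group for 18 (32.1% of all). Values without pseudopodia replicate 2 are given where a call changed or a called fold change moved by more than 1.5 times. CPM (counts relative to the library total, with TMM factors) and TPM (also scaled by gene length) are shares within a library, so a higher share in one fraction says nothing of the RNA amount per cell, and fewer cells of a kind and less RNA per cell cannot be told apart.

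Of the 39 members, 34 passed the filter on low counts (19426 genes in all). KIF1A had 0 to 5 counts per library, KIF4B 1 to 16, KIF19 0 to 2, KIF25 0 to 2 and KIF26A 0 to 6, and these 5 were not tested. KIF4B is a near-identical copy of KIF4A, so reads of these paralogs may have been assigned to either. Tested members were divided by textbook role into 15 transport kinesins, 12 mitotic kinesins and 7 others. Per length, the summed level of all members was 613, 749 and 678 TPM in pseudopodia, 244, 293 and 279 in cell body, and 462, 421 and 442 in whole cell. The sums did not overlap between groups. Transport kinesins held 584 TPM ± 65.3 (SD, n = 3) of this in pseudopodia, 173 ± 24.8 in cell body and, between them, 283 ± 14.6 in whole cell, whereas mitotic kinesins held 38.0 ± 2.44, 70.0 ± 0.941 and 117 ± 3.10. In these sums, transport kinesins were thus highest in pseudopodia and lowest in cell body, and mitotic kinesins highest in whole cell and lowest in pseudopodia. Single genes weigh heavily in them: KIF3B had 295 TPM in pseudopodia, and KIF5B 18.8 in cell body and 112 in whole cell. By gene, transport kinesins in cell body against whole cell had a median log2 fold change of -0.15 (all genes -0.06). Of the 15 tested, edgeR called 2 higher (13.3%, with 18.1% of all genes) and 5 lower (33.3%, with 20.5% of all). The threshold was an adjusted p under 0.05, and 8 passed neither way.

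**Figure D1:**
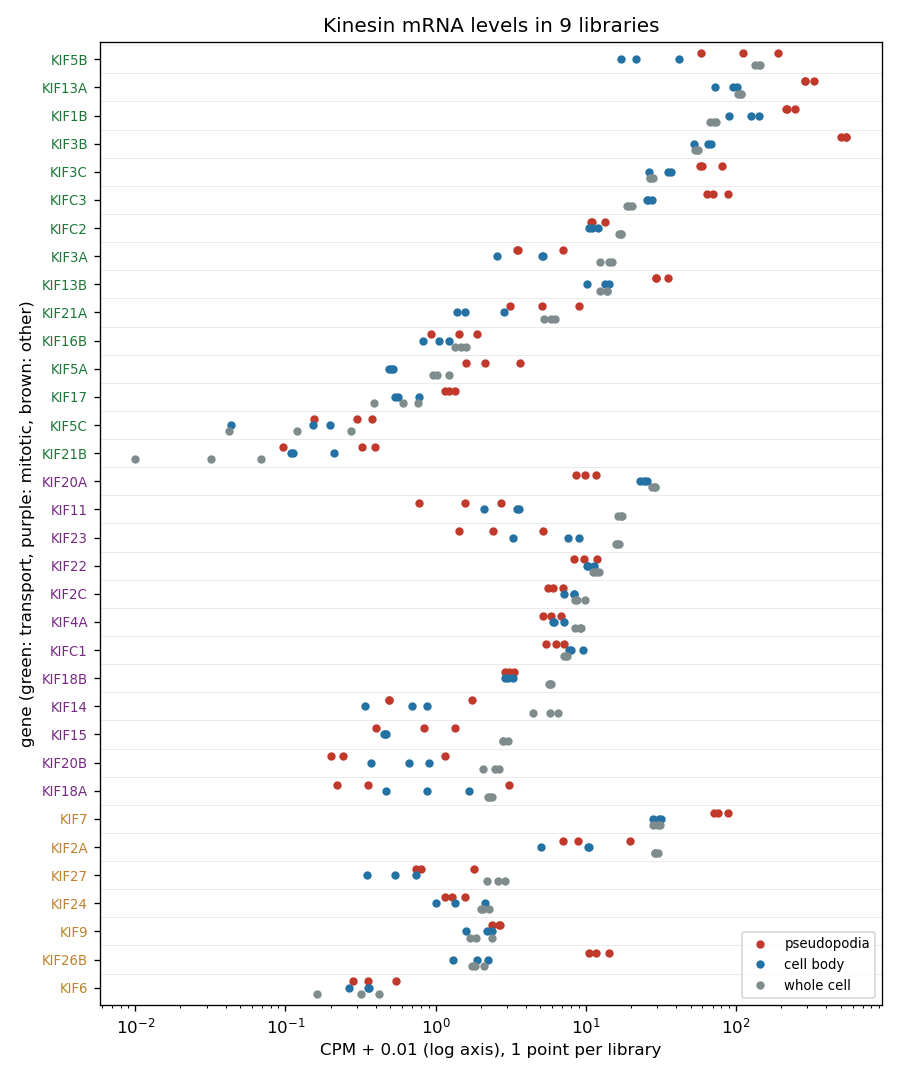
Levels of the 34 tested kinesins in CPM plus 0.01 on a log axis, 1 point for each of the 3 libraries per group, with genes grouped by role and ordered by their whole cell mean. KIF3B, KIF13A and KIF26B have pseudopodia points clear of both other groups, and most mitotic kinesins have their whole cell points farthest to the right.

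The first question was which kinesin mRNAs differ between protrusions and the cell bodies they left. In pseudopodia 13 of 34 members were higher than in cell body (38.2%, where 18.6% of all tested genes were called higher) and 1 was lower (2.94%, against 19.9% of all), by edgeR's quasi-likelihood test at an adjusted p under 0.05. Of these, 12 and 1 differed at least 2-fold, against 8.7% and 12.3% of all genes. In CPM, 13 members lay above and 3 below cell body with no overlap of the libraries, as did 22.6% and 24.5% of all genes. The median log2 fold change of the members was 0.51 and that of all genes -0.05. By role, 10 of 15 transport kinesins rose and 0 fell (median 1.12), 0 of 12 mitotic kinesins rose and 1 fell (median -0.18), and 3 of 7 others rose and 0 fell (median 0.47). At an unadjusted p under 0.05, edgeR gave 10 higher and 0 lower transport kinesins, 1 higher and 4 lower mitotic kinesins, and 3 higher and 0 lower others, and DESeq2 gave 10 and 0, 0 and 2, and 3 and 0 after adjustment. On log2(TPM + 1) in limma, which shifts the median of all genes to -0.17, the split over members was 12 higher and 5 lower. Of all 19426 genes, 2320 were higher and 5944 lower on that scale.

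KIF3B, a motor subunit of heterotrimeric kinesin-2, which carries endosomes and serves cilia, had 503.3, 545.5 and 544.5 CPM in pseudopodia, 52.65, 65.02 and 68.05 in cell body, and 55.31, 53.64 and 56.32 in whole cell. Every pseudopodia library was several times above all 6 others, which lay together. The log2 fold change was 3.10 ± 0.134 (SE, adjusted p = 5.88e-08) against cell body, an 8.58-fold difference, and 3.27 ± 0.135 (adjusted p = 2.94e-08) against whole cell. The gene (ENSG00000101350) lies on the plus strand of chromosome 20 at 32277664 to 32335011 of GRCh38. Per length it was the most abundant member in pseudopodia, with 295 TPM ± 17.9 and 43.5% ± 2.02 of the members' summed TPM, compared with 15.4% ± 1.24 in cell body and 9.53% ± 0.114 in whole cell.

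The partners of KIF3B in the same motor did not share its pattern. KIF3A, the other motor subunit of the best-studied kinesin-2, had 3.538, 7.012 and 3.472 CPM in pseudopodia, 5.089, 5.193 and 2.564 in cell body, and 15.05, 12.53 and 14.32 in whole cell. Pseudopodia and cell body overlapped (log2 fold change 0.13 ± 0.326, adjusted p = 0.778), and both lay below all whole cell libraries (-1.58, adjusted p = 0.0021, and -1.71, adjusted p = 0.00316). KIF3C, an alternative partner of KIF3A, rose in pseudopodia by 1.00 ± 0.171 against cell body (adjusted p = 0.00081) and 1.27 against whole cell (adjusted p = 8.42e-05). KIFAP3, the non-motor subunit that links kinesin-2 to cargo, had 14.0, 18.1 and 5.08 TPM in pseudopodia, 29.6, 26.4 and 23.9 in cell body and 32.0, 31.3 and 31.9 in whole cell. Its difference from cell body did not pass the test (-0.84, adjusted p = 0.0864), and against whole cell it fell by 0.91 on the log2 scale (adjusted p = 0.0449). The ratio of KIF3B to KIF3A in TPM was 160, 87.3 and 176 in pseudopodia, 11.6, 14.0 and 29.8 in cell body, and 4.12, 4.80 and 4.41 in whole cell. The 3 groups did not overlap in this ratio (two-sided exact permutation p = 0.1 for each pair, the smallest that 3 against 3 can give).

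**Figure D2:**
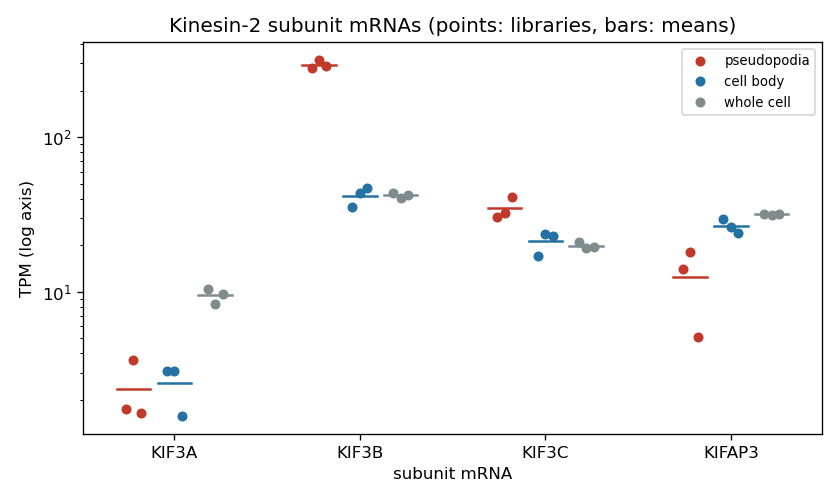
TPM of the kinesin-2 subunit mRNAs on a log axis, with points for the 3 libraries of a group and bars for their means. KIF3B is at 281 to 315 TPM in pseudopodia and at 35.5 to 46.8 in the other groups, while KIF3A and KIFAP3 are highest in whole cell.

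KIF13A, a kinesin-3 that moves recycling endosomes and melanosome cargo, had 289.7, 287.2 and 331.1 CPM in pseudopodia, 73.04, 96.06 and 101.5 in cell body, and 108.0, 103.3 and 107.7 in whole cell. Pseudopodia lay apart from both groups, and the log2 fold changes were 1.75 ± 0.143 (adjusted p = 4.21e-06) against cell body and 1.51 ± 0.142 (adjusted p = 6.28e-06) against whole cell. Its paralog KIF13B, a carrier of phosphoinositide and signalling cargo, rose by 1.31 ± 0.160 against cell body (adjusted p = 7.18e-05), and KIF1B, which carries mitochondria and synaptic vesicle precursors, rose by 0.92 ± 0.163 (adjusted p = 0.00105), less than 2-fold. Of the kinesin-3 motors tested among the transport members, KIF16B, an early endosome motor, did not pass (0.47, adjusted p = 0.197). Without pseudopodia replicate 3 it was called (0.70, adjusted p = 0.0313). KIFC3, a minus-end motor that acts at adherens junctions and the Golgi, rose by 1.51 ± 0.141 (adjusted p = 1.10e-05), from 25.46 to 27.62 CPM in cell body to 64.39 to 89.11 in pseudopodia. The other minus-end transport motor, KIFC2, had a log2 fold change of 0.07 ± 0.139 (adjusted p = 0.722).

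KIF5B, the ubiquitous heavy chain of conventional kinesin, behaved differently against each reference. Its levels were 58.37, 190.1 and 111.3 CPM in pseudopodia, 21.78, 41.61 and 17.11 in cell body, and 145.5, 133.9 and 143.2 in whole cell. Cell body was lowest throughout, while pseudopodia ranged from below to above the whole cell level, with replicate 2 highest. The log2 fold change was 2.16 ± 0.440 against cell body (adjusted p = 0.00406) and -0.23 ± 0.421 against whole cell (adjusted p = 0.653), and without pseudopodia replicate 2 these were 1.66 and -0.73. KIF5A, the heavy chain best known from neurons, rose by 2.29 ± 0.307 against cell body (adjusted p = 0.00015) at a low level, 1.59 to 3.626 CPM against 0.4811 to 0.5128. KIF5C had 2 to 27 counts per library and did not pass (1.12 ± 0.705, adjusted p = 0.235). KIF21A, a kinesin-4 that pauses microtubule growth at the cell cortex, rose by 1.57 ± 0.394 (adjusted p = 0.0109), and KIF17, a homodimeric kinesin-2, by 1.00 ± 0.282 (adjusted p = 0.0156), which without cell body replicate 3 was 0.94 (adjusted p = 0.0548). KIF21B (0.91, adjusted p = 0.3) had 0 to 23 counts per library.

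Among the members with other roles, KIF26B, a divergent kinesin linked to WNT5A signalling and cell migration, had 11.63, 10.53 and 14.31 CPM in pseudopodia, 1.302, 2.240 and 1.880 in cell body, and 1.818, 1.750 and 2.098 in whole cell. Pseudopodia did not overlap the other groups, which overlapped each other. The log2 fold changes were 2.75 ± 0.224 (adjusted p = 4.03e-06) against cell body and 2.69 ± 0.222 (adjusted p = 2.59e-06) against whole cell. KIF7, a regulator of Hedgehog signalling at the tip of the cilium, rose by 1.39 ± 0.128 and 1.40 ± 0.128 (adjusted p = 9.26e-06 and 5.00e-06). Its exons share 11.8% of their bases with TICRR on the opposite strand, and whether the counting used strand is not given in the sources used here. KIF27, a relative of KIF7, rose by 1.07 ± 0.382 (adjusted p = 0.0463, the called member nearest the threshold), which without pseudopodia replicate 2 was 0.52 (adjusted p = 0.204). The call was also lost without cell body replicate 1 (adjusted p = 0.1) or replicate 3 (adjusted p = 0.147). KIF2A, KIF6, KIF9 and KIF24 did not pass, with log2 fold changes from -0.16 to 0.47.

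The 1 mitotic kinesin that fell was KIF20A, the kinesin of the central spindle that brings the chromosomal passenger complex to the midzone. It had 11.67, 8.643 and 9.837 CPM in pseudopodia, 22.92, 24.35 and 25.76 in cell body, and 28.80, 29.10 and 27.65 in whole cell. The pseudopodia libraries were lowest, and the groups did not overlap. It fell by 1.28 on the log2 scale against cell body (SE 0.141, adjusted p = 3.65e-05). Of the 11 mitotic members that did not pass, KIFC1, which focuses spindle poles, was nearest below (-0.42, adjusted p = 0.0581) and KIF15, a spindle motor that overlaps with KIF11 in function, nearest above (0.93, adjusted p = 0.068). KIF15 was called without pseudopodia replicate 1 (1.28, adjusted p = 0.00389), and KIFC1 and KIF2C were called without pseudopodia replicate 3 (-0.53 and -0.45, adjusted p = 0.0107 and 0.0196).

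Several mitotic values differed with and without pseudopodia replicate 2. KIF18A, which dampens chromosome oscillation, had 0.3466, 3.058 and 0.2122 CPM in pseudopodia and 1.662, 0.8627 and 0.4559 in cell body, so that its highest and lowest libraries were both pseudopodia. Its log2 fold change was 0.32 ± 0.847 (adjusted p = 0.795) with all libraries and -1.78 (adjusted p = 0.0191) without pseudopodia replicate 2. Without that library 5 of 12 mitotic kinesins were lower in pseudopodia than in cell body, in place of 1, with KIF11 at -1.37, KIF20B at -1.57 and KIF23 at -1.79. The count for transport kinesins was 10 higher and 0 lower with or without it. Of all genes, 4561 of 20154 were lower and 4020 higher without it, against 3870 and 3605 of 19426 with it.

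**Figure D3:**
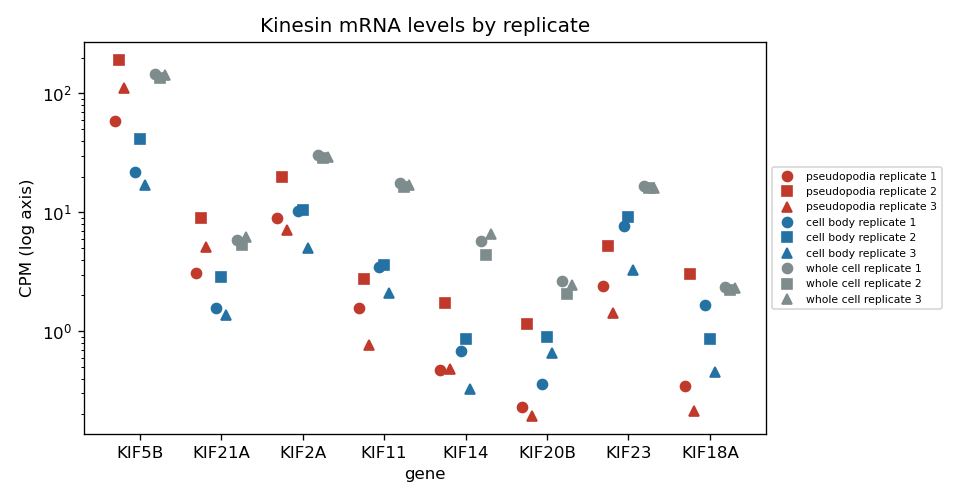
CPM on a log axis of 8 kinesins by library, with a colour for each group and a marker for each replicate number. Pseudopodia replicate 2 (red squares) is the highest pseudopodia library for all 8, and for KIF18A it is 3.058 CPM against 0.3466 and 0.2122 in the other replicates.

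A list of cycling cell markers, with 14 tested genes such as CDK1 and BUB1, was set beside the mitotic kinesins. In edgeR 0 rose in pseudopodia against cell body (0 also at an unadjusted p under 0.05), where 18.6% of all genes rose. In the same comparison 8 fell (57.1%, with 19.9% of all genes). Their summed level was 71.2 to 91.8 TPM in pseudopodia, 153 to 165 in cell body and 236 to 253 in whole cell. Against whole cell 11 of the 14 fell in pseudopodia (78.6%, with 33.1% of all) and 5 in cell body (35.7%, with 20.5% of all). The 2 lists were not compared by a test, and the part of cell cycle state in the mitotic kinesin values was not tested.

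The second question was how pseudopodia compare with whole cells, a comparison that shares the pseudopodia libraries with the first. Here 11 of 34 members were higher (32.4%, with 27.9% of all genes called higher) and 13 were lower (38.2%, with 33.1% of all). These shares are near those of all genes. At least 2-fold higher were 11 and lower 9 (14.5% and 24.7% of all), and 12 members lay above and 15 below whole cell with no overlap of the libraries (31.1% and 38.9% of all). The roles differed in direction: 9 of 15 transport kinesins rose and 2 fell (median 1.21), 0 of 12 mitotic kinesins rose and 9 fell (median -1.20), and 2 of 7 others rose and 2 fell (median 0.39), with -0.12 as the median of all genes. No mitotic kinesin was higher at an unadjusted p under 0.05 either, nor in DESeq2. On log2(TPM + 1) in limma, where the median of all genes was -0.34, the members split into 9 higher and 17 lower. Of all 19426 genes, 3229 were higher and 9686 lower on that scale, so the share of lower members was near that of all genes.

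Transport and other members that rose at least 2-fold in both comparisons were KIF3B, KIF13A, KIF26B, KIFC3, KIF5A, KIF3C, KIF13B, KIF17 and KIF7. Against whole cell, KIFC3 rose by 1.94 ± 0.143 (adjusted p = 1.22e-06), KIF1B by 1.68 ± 0.166 (adjusted p = 8.80e-06), KIF13B by 1.23 (adjusted p = 6.12e-05), KIF5A by 1.21 (adjusted p = 0.00355) and KIF17 by 1.11 (adjusted p = 0.00546). KIF21B, a kinesin-4, was called higher (3.17 ± 0.816, adjusted p = 0.00585) on 6, 23 and 20 counts in pseudopodia against 2, 4 and 0 in whole cell, so its size is poorly known; without whole cell replicate 2 it was 4.19. Lower than whole cell by at least 2-fold were KIF3A (above), KIF27 (-1.20, adjusted p = 0.0121) and KIF2A, a microtubule depolymerase of interphase and spindle (-1.30, adjusted p = 0.0171). The call of KIF2A was lost without pseudopodia replicate 1 (-1.12, adjusted p = 0.0601) or replicate 3 (-1.03, adjusted p = 0.0753). KIF2A shares 8.97% of its exon bases with IPO11 on the same strand. KIFC2 fell by less than 2-fold (-0.53, adjusted p = 0.00636). KIF24, which holds centrioles back from forming cilia, was nearest the threshold (-0.65, adjusted p = 0.052), and without pseudopodia replicate 2 it was called at -0.78 (adjusted p = 0.0394).

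KIF11, the bipolar motor that pushes spindle poles apart, had the lowest log2 fold change of all members. It had 1.560, 2.731 and 0.7716 CPM in pseudopodia, 3.495, 3.600 and 2.094 in cell body, and 17.58, 16.33 and 17.13 in whole cell. Whole cell stood apart from both fractions, and these overlapped each other. It fell by 3.32 on the log2 scale in pseudopodia against whole cell (SE 0.402, adjusted p = 8.64e-05), a 9.97-fold difference. KIF14, a cytokinesis kinesin, followed at -2.61 (adjusted p = 0.00197), with KIF23, the motor of centralspindlin, at -2.42 (adjusted p = 0.00215), KIF20B, a cytokinesis motor, at -2.15 (adjusted p = 0.0108), KIF15 at -1.74 (adjusted p = 0.00101) and KIF20A at -1.50 (adjusted p = 6.36e-06). KIF18B, KIF4A and KIF2C fell by less than 2-fold (-0.90, -0.59 and -0.53). The call of KIF2C was lost without whole cell replicate 2 (-0.42, adjusted p = 0.0896). KIF18A, KIF22 and KIFC1 did not pass (-0.90, -0.22 and -0.23). Without pseudopodia replicate 2, KIF18A was called at -3.00 (adjusted p = 0.000556), and KIF14 was at -3.53, KIF20B at -3.47 and KIF23 at -3.07. Without pseudopodia replicate 3, KIF22 was called at -0.36 (adjusted p = 0.0223).

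**Figure D4:**
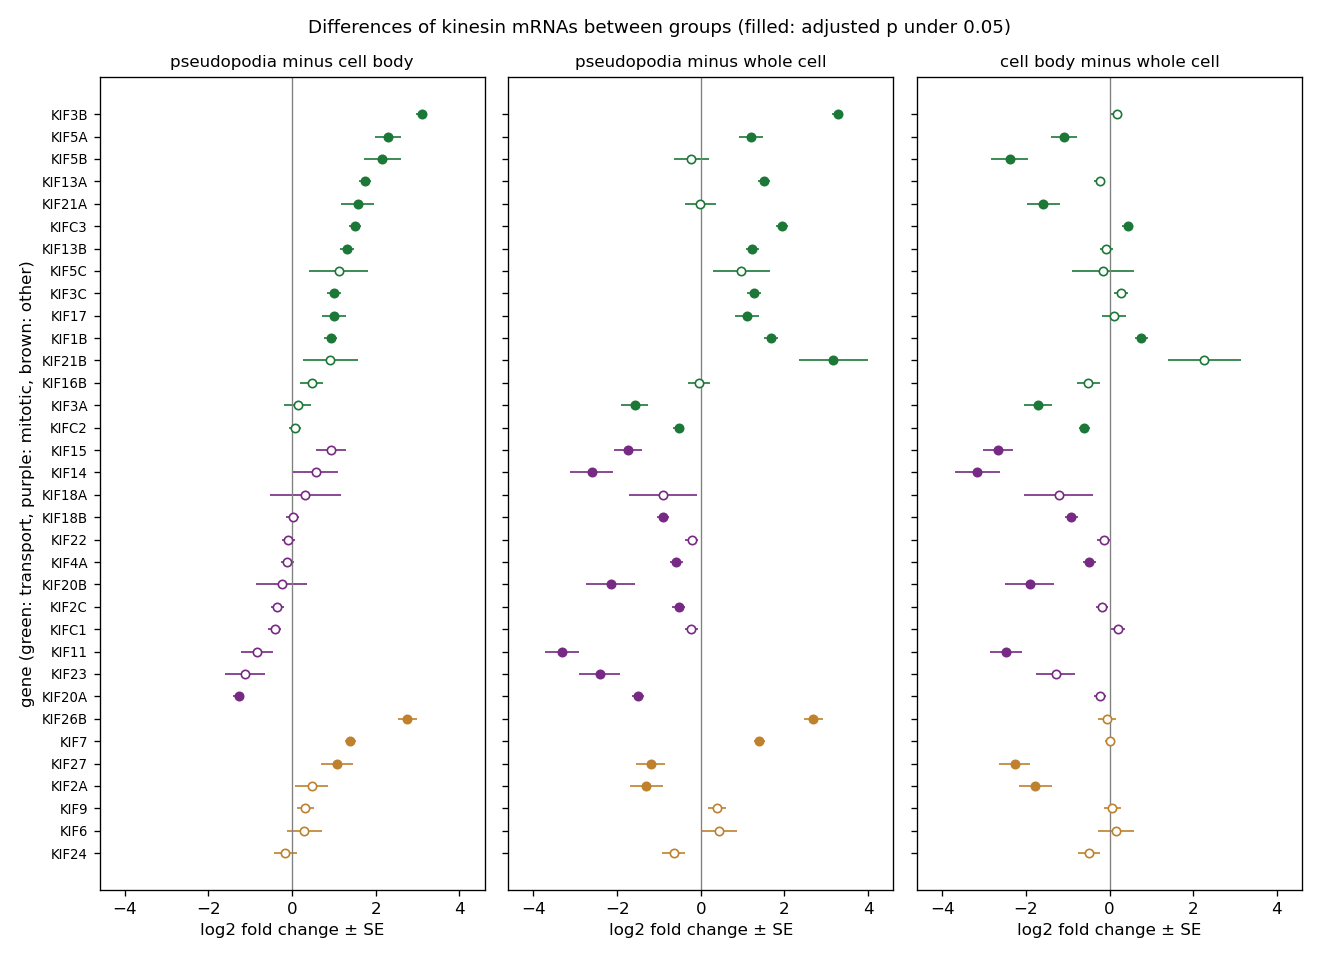
Log2 fold changes with standard errors for the 34 tested kinesins in the 3 comparisons, filled where the adjusted p was under 0.05. Green transport kinesins lie mostly right of 0 in both comparisons of pseudopodia, purple mitotic kinesins lie left of 0 in pseudopodia against whole cell, and KIF3B is the farthest right at 3.10 and 3.27.

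The third comparison, cell body against whole cell, shares libraries with both others. It gave 2 members higher (5.88%, with 18.1% of all genes higher) and 13 lower (38.2%, with 20.5% of all), with a median of -0.36 against -0.06 for all genes. At least 2-fold higher were 0 and lower 10 (5.45% and 14.5% of all), and 4 members lay above and 19 below with no overlap (30% and 34.9% of all). The 2 that rose were KIF1B (0.76, adjusted p = 0.00424) and KIFC3 (0.43, adjusted p = 0.0298), both under 2-fold. Lower by at least 2-fold were 4 transport members, KIF5B (-2.39, adjusted p = 0.00316), KIF3A, KIF21A (-1.59, adjusted p = 0.0114) and KIF5A (-1.08, adjusted p = 0.0182). So were 4 mitotic members, KIF14 (-3.16, adjusted p = 0.00206), KIF15 (-2.67, adjusted p = 0.000274), KIF11 (-2.48, adjusted p = 0.00118) and KIF20B (-1.91, adjusted p = 0.029), and 2 others, KIF27 (-2.27, adjusted p = 0.00105) and KIF2A (-1.77, adjusted p = 0.00773). KIF4A, KIFC3 and KIF20B each lost the call in 5 of the 6 fits without a single library, with adjusted p up to 0.146, 0.0946 and 0.0911, and KIF5A in 4, with adjusted p up to 0.0637. KIF3B, KIF13A, KIF26B and KIF7, which were high in pseudopodia, had log2 fold changes of 0.17, -0.24, -0.06 and 0.01 here, and none passed. Of these genes, only KIF3B was called after the GC and length correction described below (0.25, adjusted p = 0.0112).

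Against whole cell, members of lower GC content were more often lower in the fractions. KIFC2 (68.1% GC) and KIF18B (58.4% GC) were called lower in both fractions and lay at the other end of the GC range. Over 34 members, log2 fold change and GC content of the longest transcript had Pearson r = 0.55 (Spearman rho 0.62) for pseudopodia against whole cell, r = 0.69 (rho 0.74) for cell body against whole cell and r = 0.11 (rho 0.11) for pseudopodia against cell body. Over all 18675 tested genes with a GC value r was 0.31, 0.26 and 0.19. These describe genes measured in the same libraries, which are not independent. Below the members' median of 48.0% GC, 10 of 17 members were lower and 1 higher in cell body than in whole cell. At or above it, 3 were lower and 1 higher, with 20.5% of all genes lower and 18.1% higher. For pseudopodia against whole cell these were 9 lower and 3 higher, then 4 lower and 8 higher, with 33.1% and 27.9% of all genes. Within roles, r was 0.73 (mitotic) and 0.34 (transport) for pseudopodia against whole cell, and 0.75 and 0.57 for cell body against whole cell. For pseudopodia against cell body r within roles was -0.14 and -0.23.

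After correction of the counts for GC content and length, 12 members were lower and 11 higher in pseudopodia than in whole cell. Of the 12, 10 were mitotic. Of all 19426 genes, 5833 were lower and 6462 higher in that fit, shares near those of the members. KIF3A was then at -0.51 (adjusted p = 0.0948), KIF2A at -0.65 (adjusted p = 0.0768), KIF27 at -0.36 (adjusted p = 0.279) and KIF20B at -0.87 (adjusted p = 0.0802), each no longer called. KIF11 (-2.33, adjusted p = 8.61e-06) and KIF14 (-1.72, adjusted p = 0.00207) were still called, and so was KIF3B at 3.31 (adjusted p = 1.17e-09). Newly called lower were KIF22 (-0.46), KIFC1 (-0.42) and KIF24 (-0.69). Against cell body the corrected fit newly called KIF15 (1.26, adjusted p = 0.0154) and KIF2A (0.81, adjusted p = 0.0485) higher in pseudopodia. KIFC1 was newly called lower there (-0.46, adjusted p = 0.00891). The part of library preparation in the relation with GC content was not tested.

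**Figure D5:**
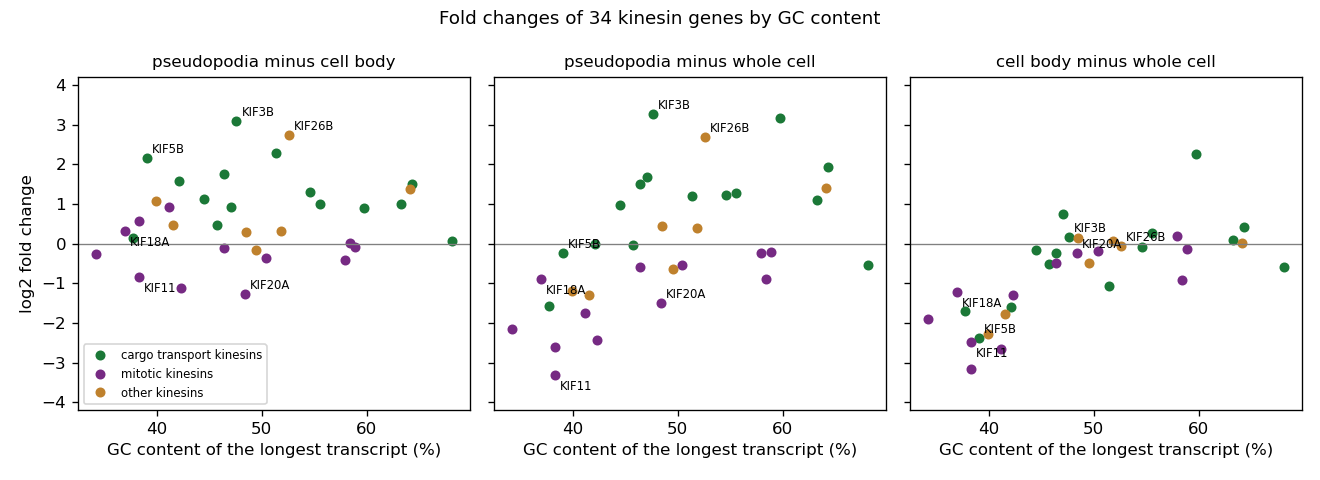
Log2 fold change against GC content of the longest transcript in percent for 34 kinesins, 1 point per gene, coloured by role. In both comparisons with whole cell the genes lowest in GC lie mostly below 0, while KIF3B, near the middle of the GC range, is the highest point in both comparisons of pseudopodia.

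The 3′ untranslated regions of members were searched for stretches rich in purines, since purine-rich stretches are known in some mRNAs that localise to protrusions. The median purine content was 48.2% for the 34 members and 48.8% for 13798 tested genes. The richest window of 30 bases held a median of 24 purines in both. Windows of members that rose against cell body ranged from 21 purines in KIF7 and 22 in KIF17 to 29 in KIF3B, where they are a run of adenines. KIF14 and KIF18B, which were low in both fractions against whole cell, had 28 and 27. KIF6, a kinesin known from cilia, had a window of 30 purines and did not pass the test in any comparison. It had only 14 to 37 counts per library (SE 0.42 against cell body), so its change is poorly known. The Pearson r between log2 fold change (pseudopodia against cell body) and purine content over 34 members was 0.16.

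Levels per length placed the members in different orders in the 3 groups. In whole cell KIF5B led with 112 TPM ± 7.07, then KIF13A (44.6 ± 1.94) and KIF3B (42.1 ± 1.58), which overlapped each other, KIF20A (34.6 ± 1.37), KIF7 (25.6 ± 1.94) and KIF3C (19.9 ± 0.955). In cell body KIF3B (41.9 ± 5.77) and KIF13A (33.5 ± 5.81) led with overlapping libraries, followed by KIF1B (26.3 ± 5.87), KIF20A (26.2 ± 1.82), KIF7 (22.9 ± 1.38), KIF3C (21.3 ± 3.71) and KIF5B (18.8 ± 8.84). In pseudopodia KIF3B (295 ± 17.9) was followed by KIF13A (92.1 ± 4.02), KIF5B (70.0 ± 40.9), whose libraries spanned those of its neighbours, KIF7 (49.1 ± 3.39), KIF1B (40.9 ± 4.67) and KIF3C (34.8 ± 5.49). KIF20A, among the first 4 in the other groups, was not among the first 8 in pseudopodia.

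The proteins that kinesins work with were followed in a list of 33 light chains, adaptors and regulators, of which 30 were tested. In pseudopodia 13 rose (43.3%, with 18.6% of all genes) and 5 fell (16.7%, with 19.9% of all) against cell body. Against whole cell 15 rose (50.0%, with 27.9%) and 7 fell (23.3%, with 33.1%). In cell body 7 rose (23.3%, with 18.1%) and 5 fell (16.7%, with 20.5%) against whole cell, shares near those of all genes. On log2(TPM + 1) these splits were 11 and 9, 9 and 11, and 5 and 7. All 19426 genes shifted on that scale too, with 2320 higher and 5944 lower, 3229 and 9686, and 2654 and 5910. The raw balance of the list thus depended on the scale, as did that of all genes. TRAK2, the adaptor between mitochondria and kinesin or dynein, had 1398, 1393 and 1512 CPM in pseudopodia, 48.28, 54.62 and 65.63 in cell body, and 85.62, 79.82 and 84.26 in whole cell. Its pseudopodia libraries were far above all others (4.67 ± 0.152 against cell body, adjusted p = 9.45e-09). PPFIA1, a liprin that binds KIF1 motors, followed at 2.34 (adjusted p = 2.89e-06) and the kinesin light chain KLC4 at 1.78 (adjusted p = 7.91e-06). The lowest were BICD2, an adaptor mainly of dynein (-1.40, adjusted p = 6.96e-05), KIFBP, which holds several kinesins off microtubules (-1.25, adjusted p = 0.000566), and ZFYVE27, the protrudin that loads KIF5 onto late endosomes (-1.01, adjusted p = 0.00037).

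Against whole cell the highest partners in pseudopodia were TRAK2 (4.11), MAP7D1, a microtubule protein that recruits kinesin-1 (2.35), and PPFIA1 (2.32), and the lowest were MAP7D3 (-2.46), HOOK3 (-2.29) and MAPK8IP3 (-1.21). In cell body against whole cell they were MAP7D1 (1.24), PLEKHM2 (0.77) and TRAK1 (0.74) at the top and MAP7D3 (-2.47), MAP7D2 (-1.53) and HOOK3 (-1.39) at the bottom. MAP7D1 and MAP7D3, paralogs with related functions, thus lay at opposite ends in both comparisons with whole cell.

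For reference, KIF1C itself had 4292 CPM ± 774 in pseudopodia against 151.8 ± 7.33 in cell body and 172.3 ± 4.82 in whole cell, with log2 fold changes of 4.82 and 4.64 in the pseudopodia comparisons, above every member. CENPE, the kinetochore kinesin, was at 0.37 (adjusted p = 0.666) against cell body and -2.20 (adjusted p = 0.00677) against whole cell, and STARD9, a kinesin of the centrosome and lysosomes, at 1.02 (adjusted p = 0.000557) and -0.22 (adjusted p = 0.261).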

How the data were processed

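The authors deposited 1 table of whole-number read counts, made with featureCounts per the labels, and TPM for each library. The submitters' processing notes name GRCh38 and DESeq2. The aligner, annotation release and strand setting are not given in these sources. One blank line of the count table was left out. From the counts, edgeR 4.0.16 (R 4.3.3) fitted all 9 libraries together with group as the factor (TMM factors, the filter by group, robust quasi-likelihood test), and p-values were adjusted by Benjamini-Hochberg over 19426 genes, with 0.05 as the threshold. The groups differed in spread, so with 1 spread per gene p-values may be too small for pseudopodia. The main fit was tested on simulated data with 200 changed genes, made with 1 spread per gene for all groups. It recovered 4.76% to 9.09% of 1.5-fold changes, 27.7% to 34.3% of 2-fold changes and 84.1% to 89.1% of 4-fold changes. A member that did not pass may therefore still differ by 2-fold. TPM served for levels between genes and summed levels.

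Members and lists were chosen with earlier results of these data known. By rule, members called at 2-fold or more were named with values, the others by count and range, with the 3 highest and 3 lowest called partners; KIF6 and the genes with sequences were chosen after their values were seen. Positions, GC content and 3′ untranslated regions came from GENCODE 29 on GRCh38. Alternatives were other scalings and filters, a GC and length correction, DESeq2 1.42.0, limma 3.58.1 (voom with sample weights, and log2(TPM + 1)), a replicate block and leaving out libraries. Replicates differed by more than counting noise (lowest chi-square per gene 5.16).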

Additional observations from a re-analysis of the deposited data

How the results depend on the processing

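In pseudopodia against cell body, the count of higher kinesins (13) lay between 10 and 15 in every alternative run. The count of lower ones (1) was 3 with a filter of 5 CPM, 2 in DESeq2 and after GC and length correction, 6 with limma-voom, 5 on log2(TPM + 1) and 1 to 5 when single libraries were left out. It was 5 without replicate 2 of pseudopodia and cell body together, an alternative chosen after seeing the data. That setting put KIF18A at -1.87 (adjusted p = 0.0308), and leaving out only pseudopodia replicate 2 at -1.78, both opposite in sign to 0.32; without other single libraries it reached 0.93. Lower partners (5) were 8 with limma-voom, 9 on log2(TPM + 1), 5 to 8 without single libraries and 8 without both replicates 2.

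Against whole cell in pseudopodia, higher partners (15) were 9 and lower partners (7) 11 on log2(TPM + 1). In cell body against whole cell, higher kinesins (2) were 1 with upper-quartile factors, 4 after GC and length correction, 5 with limma-voom, 1 on log2(TPM + 1) and 1 to 2 without single libraries. Lower kinesins (13) were 8 with the 5 CPM filter, where fewer genes are tested. Higher partners (7) were 11 with limma-voom, and lower partners (5) were 8 with limma-voom, 8 in a fit of only the 6 libraries compared and 3 with the replicate block and GC and length correction together. The cause of these moves was not tested.

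The sources do not say whether replicate numbers pair the samples. Correlations of same-numbered deviations ran from -0.081 to 0.09, and those of unlike-numbered ones from -0.176 to 0.144. With 3 libraries per group, these values cannot show whether samples were paired. With the replicate block, 3 kinesins were lower in pseudopodia than in cell body, also after GC and length correction, and 13 were higher without that correction. KIF5C had 2 to 27 counts per library and KIF21B 0 to 23, so their fold changes are imprecise (SE 0.705 and 0.657 in pseudopodia against cell body).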
